A study of Mus musculus with 64 samples.

Results

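Exposure to Salmonella enterica Serovar Enteritidis killed by heat (hk S.E.) switched bone marrow-derived macrophages (BMMs) that lack the aryl hydrocarbon receptor (AhR) to an inflammatory and antiviral program within 3 h. Transcripts of cytokines, chemokines, NF-kB inhibitors and interferon-stimulated genes (ISGs) rose together, many from levels at or near 0, while most cell cycle genes tested fell, as did single receptors such as Cxcr4. The comparison rests on 8 of the 64 RNA-seq libraries of the study, chosen by their labels: 4 libraries of Ahr-/- BMMs exposed to hk S.E. for 3 h and 4 libraries of resting Ahr-/- BMMs of the same time point, neither with an AhR ligand. The study as a whole asked how the ligands benzo[a]pyrene (BaP) and indole-3-carbinol (I3C) change activated BMMs, and the comparison described here gives the response on which they would act when the receptor is missing.

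All 8 cultures were marrow cells grown for 6 days with macrophage colony-stimulating factor from L929 supernatant, kept at 1000000 BMMs per ml with 0.01% DMSO for 6 h, and then given 10000000 hk S.E. per ml or none. The marrow came from C57BL/6 mice with a deletion of Ahr in all their cells, bought from Jackson Laboratory, crossed back to C57BL/6JRj in-house and used at 8 to 12 weeks of age. The methods give 4 mice per genotype, but the labels do not tie a library to a mouse, so p-values here measure the spread between libraries of a group. For comparison, the text uses the same 2 treatments in 8 libraries of Ahr+/+ BMMs from C57BL/6JRj mice at 3 h and in 8 libraries of Ahr-/- BMMs at 20 h, all with DMSO and no ligand.

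AhR is a transcription factor of the cytosol that, once bound by a ligand, pairs with ARNT, binds DNA at AhR response elements (AHREs) and drives its own repressor Ahrr, Tiparp and the Cyp1 enzymes. Bacterial lipopolysaccharide and lipoproteins are sensed by Toll-like receptors (TLRs), whose adaptor MyD88 leads to NF-kB and AP-1 and thus to Tnf, Il1b and chemokines. TLR4 and TLR3 also signal through TRIF, TBK1 and IRF3 to interferon-beta, which acts back on the cell through JAK kinases, STAT2 and IRF9 to induce the ISGs. NF-kB also induces its own inhibitors, so that the first hours of activation hold both inducers and brakes.

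Reads were counted on Ahr (ENSMUSG00000019256.17, chr12:35497974-35535038 in GRCm38, minus strand) in every library, the knockout ones included. Resting Ahr-/- BMMs had 9.47, 6.62, 5.32 and 5.11 CPM (counts per 1000000 counts on tested genes, with library sizes scaled by the TMM factors) in replicates 1 to 4, and activated ones had 13.1, 12.8, 12.9 and 12.8 CPM. These levels stood above those of Ahr+/+ BMMs, which had 3.90, 4.67, 3.01 and 1.09 CPM at rest and 9.77, 6.67, 7.13 and 4.46 CPM after hk S.E. The counts of the whole gene therefore do not check the knockout, and which part of the gene was deleted is not given in the sources used here. The transcript rose with activation in the knockout (log2 fold change 0.95, SE 0.20, adjusted p = 4.30e-05), and its 4 activated libraries lay between 12.8 and 13.1 CPM, all above the resting ones. With replicates 1 and 2 alone the rise was 0.68 with an adjusted p of 0.0368.

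The 8 libraries hold 16949043 to 27603479 counts on genes, and 3 counts equal 0.109 CPM on average in the 4 resting ones. Libraries of a group differed by more than sampling noise, with a chi-square per degree of freedom of 4.12 to 98.6 between pairs, lowest between replicates 3 and 4 in both states (5.79 at rest and 4.12 activated), so none was counted as a repeat of another. That does not show that they come from separate mice. At rest, replicates 1 and 2 were the most unlike pair, at 98.6, while 1 had 33.3 and 34.5 against 3 and 4. Principal components were taken over the 1000 genes of highest variance in these 8 libraries. The first, with 95.5% of the variance of these genes, separated resting from activated. On the second, with 1.8%, replicates 3 and 4 lay above 1 and 2 in both states. At rest its values were -0.93, -9.94, 5.24 and 6.42 in replicates 1 to 4, so 1 and 2 were not alike in this split. Values of genes that move with this split are given with it. The 7 macrophage markers had summed levels of 25161 to 29113 CPM at rest and 26250 to 29687 CPM after activation, with Adgre1 and Fcgr1 called higher and Csf1r and Mertk called lower. Lyz2, lysozyme of myeloid cells, had 24190, 22606, 20953 and 20033 CPM at rest and 22901, 23674, 21817 and 20637 CPM after hk S.E., and these did not differ by the test (log2 fold change 0.02, SE 0.15, adjusted p = 0.919). No library reached more than 0.320 CPM over 8 T and NK cell markers, and the 5 erythroid markers were at 0 throughout. Neutrophil markers summed to 83.7 to 118 CPM at rest and 164 to 209 CPM after activation, with S100a8, S100a9, Camp and Ngp called higher and Ly6g, Mpo, Elane and Retnlg too low to test. B cell markers summed to at most 5.45 CPM and dendritic cell markers to at most 1.69 CPM, and mast cell markers reached 0.320 CPM. Fibroblast markers summed to 3.04 and 2.80 CPM in resting and 3.79 and 3.77 CPM in activated replicates 3 and 4, against at most 0.503 CPM in replicates 1 and 2. The part of these other cell types in the results was not tested.

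Counts were normalized by TMM and compared with the quasi-likelihood test of edgeR, fitted to all 64 libraries, with Benjamini-Hochberg adjustment over 14537 tested genes, and a gene was a DEG at an adjusted p below 0.01. Fold changes are log2 ratios of activated to resting BMMs with their standard error (SE), and adjusted p-values below are from this test. At 3 h, 8330 genes were DEGs in Ahr-/- BMMs, which is 57.3% of those tested. Of these, 3702 rose (25.5%) and 4628 fell (31.8%). These shares are the ones to set beside the counts of list members below. The 4 activated and the 4 resting libraries did not overlap in 8028 genes (55.2%). The rises reached further than the falls: 389 genes rose and 144 fell by 4 or more on the log2 scale, while 157 rose and 20 fell by 6 or more. Median changes of the called genes were alike, 1.18 for those that rose and 1.19 for those that fell. Protein-coding genes made up 3311 of the rising and 4236 of the falling DEGs, lncRNAs 170 and 332, and pseudogenes 220 and 58. In bulk RNA, fewer cells of a type and less RNA per cell cannot be told apart. Levels are relative to the scaled library size, and the median change over all tested genes was -0.08. The TMM factors split by state, with 1.306 to 1.338 in the resting and 0.822 to 0.844 in the activated libraries, so small changes depend on them. With DESeq2 size factors in edgeR the median change was -0.013.

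**Figure D1:**
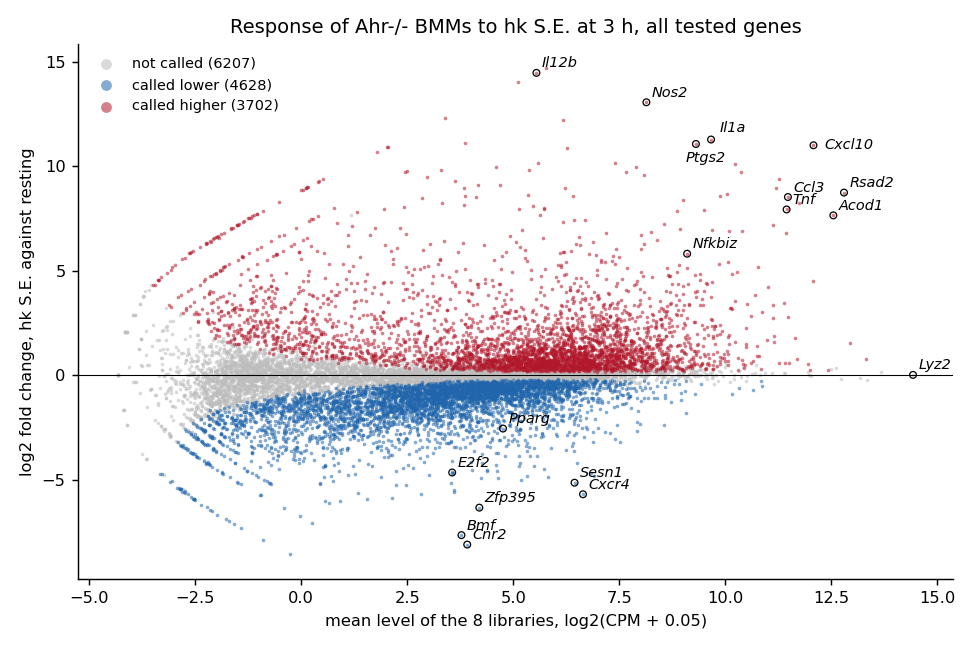
Each point is 1 of 14537 tested genes in Ahr-/- BMMs at 3 h, with its mean level over the 8 libraries as log2(CPM + 0.05) on the x axis and its log2 fold change (hk S.E. against resting) on the y axis. Red points are the 3702 genes called higher, blue points the 4628 called lower and grey points the 6207 not called, and the tail of rises reaches beyond 10 on the log2 scale while the falls end near -8.

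Promoters of 6 genes that rose, chosen because they hold matches, are printed to show the sites by which NF-kB and the interferon-activated factors are known to reach their targets. They are RefSeq windows on GRCm38.p6, 250 bases before the start of the gene, 5′ to 3′ on the gene's strand. The first 3 belong to NF-kB-type genes, an inhibitor and 2 chemokines, and the last 3 to interferon-beta and 2 ISGs. Capitals mark matches to the consensus for NF-kB (kB), the interferon-stimulated response element (ISRE) or AP-1 (TGANTCA), searched on both strands.

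Nfkbia (chr12:55492648-55492897, minus strand): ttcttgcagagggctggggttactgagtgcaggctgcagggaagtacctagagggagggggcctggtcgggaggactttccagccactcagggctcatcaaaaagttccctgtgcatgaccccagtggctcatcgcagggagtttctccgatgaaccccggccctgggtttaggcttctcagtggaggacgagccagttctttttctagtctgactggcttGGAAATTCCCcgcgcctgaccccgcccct

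Cxcl1 (chr5:90890995-90891244, plus strand): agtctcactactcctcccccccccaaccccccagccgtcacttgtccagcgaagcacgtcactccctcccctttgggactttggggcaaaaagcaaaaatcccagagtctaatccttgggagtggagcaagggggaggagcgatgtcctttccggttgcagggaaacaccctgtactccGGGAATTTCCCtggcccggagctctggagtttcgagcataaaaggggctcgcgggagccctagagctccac

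Cxcl10 (chr5:92348890-92349139, minus strand): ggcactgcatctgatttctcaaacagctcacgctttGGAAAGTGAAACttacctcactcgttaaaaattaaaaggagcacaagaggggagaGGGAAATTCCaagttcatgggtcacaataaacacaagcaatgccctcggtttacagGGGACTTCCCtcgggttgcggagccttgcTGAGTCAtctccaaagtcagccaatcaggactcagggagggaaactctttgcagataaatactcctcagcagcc

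Ifnb1 (chr4:88522795-88523044, minus strand): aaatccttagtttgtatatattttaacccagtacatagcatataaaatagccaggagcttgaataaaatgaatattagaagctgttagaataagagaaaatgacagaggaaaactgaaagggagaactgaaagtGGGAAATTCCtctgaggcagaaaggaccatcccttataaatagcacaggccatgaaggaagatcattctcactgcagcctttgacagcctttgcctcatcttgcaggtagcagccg

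Ifit1 (chr19:34640639-34640888, plus strand): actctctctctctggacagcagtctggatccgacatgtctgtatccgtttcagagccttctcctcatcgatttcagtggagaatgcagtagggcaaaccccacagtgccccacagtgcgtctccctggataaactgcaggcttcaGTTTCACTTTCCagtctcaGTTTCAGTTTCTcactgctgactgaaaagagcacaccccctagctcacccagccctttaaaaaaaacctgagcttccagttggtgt

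Isg15 (chr4:156200819-156201068, minus strand): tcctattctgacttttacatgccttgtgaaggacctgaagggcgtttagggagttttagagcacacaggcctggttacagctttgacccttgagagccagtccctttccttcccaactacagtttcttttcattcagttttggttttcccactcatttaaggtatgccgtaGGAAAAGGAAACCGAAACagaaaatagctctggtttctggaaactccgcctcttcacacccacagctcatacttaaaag

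The kB match of Nfkbia begins 29 bases before the start, and that of Ifnb1 116 bases before it. Cxcl1 has overlapping kB matches on both strands from 71 and 70 bases before the start. Cxcl10 combines an ISRE 214 bases, kB matches 159 and 103 bases and an AP-1 match 74 bases before its start. Ifit1 has ISRE matches 105 and 86 bases before the start, and Isg15 overlapping ones from 79 and 73. Over windows from 250 bases before to 50 bases after the start, which 9519 of 12011 tested protein-coding symbols had, a kB match lay in 5.15% of all genes, in 6.48% of the genes that rose and in 4.38% of those that fell. In the 255 genes with a window that rose by 4 or more on the log2 scale it lay in 11.8%. The ISRE lay in 1.05% of all, 2.21% of the rising and 0.559% of the falling genes, in 7.45% of the strongly rising ones and in 13 of 36 ISGs. AP-1 matches lay in 5.17% of all genes and in 16.1% of those that rose by 4 or more. The AHRE core, GCGTG, lay in 51.7% of all, 50.4% of the rising and 53.3% of the falling genes. It lay in 33.7% of the genes that rose by 4 or more and in 50.15% of those that fell by 2 or more. Among the ISGs it lay in 7 of 36. Of the other rising genes looked at, Tnf, Il1b, Il12b, Ptgs2 and Cxcl9 had none of the kB, ISRE and AP-1 matches in the 250 bases before the start, and the ISGs Rsad2 and Gbp5 had no ISRE. A match describes the letters only, and a window without one says nothing of the factor.

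Sensors of bacteria and their adaptors rose more often than they fell. Of 34 pattern recognition receptors and adaptors, 20 rose, 8 fell and 6 were not called, with a median log2 fold change of 0.95 against -0.08 over all tested genes, of which 25.5% rose and 31.8% fell. The largest rises belonged to cytosolic sensors and the kinase Ripk2. Nod1, a sensor of peptidoglycan, went from 5.10, 5.38, 5.26 and 4.61 CPM to 161, 139, 140.1 and 125 CPM (log2 fold change 4.79, SE 0.14, adjusted p = 4.26e-35). Nlrp3, which forms the inflammasome, went from 68.8, 69.8, 63.5 and 64.6 CPM to 1510, 1576, 1393 and 1286 CPM (log2 fold change 4.43, SE 0.10, adjusted p = 2.69e-40). In both genes every activated library was far above every resting one, and the spread within a group was small beside the step. Nod2, the muramyl dipeptide sensor, rose by 4.26 and Ripk2, which acts below both Nod receptors, by 4.62, each with groups that did not overlap. Among surface receptors, Tlr2, which senses lipoproteins, went from 99.3, 88.4, 109 and 105 CPM to 1049, 995, 1062 and 992 CPM (log2 fold change 3.35, SE 0.10, adjusted p = 1.97e-35), and Cd14 rose by 1.87.

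The lipopolysaccharide receptor itself went the other way. Tlr4 had 87.6, 36.4, 65.4 and 80.2 CPM at rest and 19.1, 16.1, 37.5 and 35.3 CPM after hk S.E. (log2 fold change -1.32, SE 0.29, adjusted p = 8.42e-05), and 1 resting library lay among the activated ones. Its partner Ly96 had a log2 fold change of 0.87 (adjusted p = 0.0135) and was not called. Tlr5, the flagellin receptor, fell by 3.95 and Tlr13, which senses bacterial ribosomal RNA, by 2.67. The endosomal receptors Tlr3 and Tlr7 rose by 3.18 and 2.08, whereas Tlr8 and Tlr9 were not called. Of the adaptors and kinases, Myd88 rose by 2.58, Irak2 by 2.81, Map3k8 by 3.06, Ikbke by 2.33 and Tbk1 by 1.40, and Irak4 fell by 1.13. Clec4e, the lectin receptor Mincle, rose by 4.24, and Clec7a, the receptor dectin-1, fell by 0.62, as did the inflammasome gene Nlrc4.

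NF-kB genes rose with few exceptions. Of 14 subunits, kinases and inhibitors, 12 rose, none fell, and only the kinase subunits Chuk (0.53, adjusted p = 0.0407) and Ikbkg (0.00, adjusted p = 0.992) were not called, with a median of 2.64. Nfkbiz, a nuclear regulator needed for secondary targets such as Il6, went from 18.7, 19.5, 19.5 and 19.0 CPM to 1041, 1030, 1155 and 1094 CPM (log2 fold change 5.82, SE 0.11, adjusted p = 5.29e-43). Nfkbia, whose promoter is shown above, went from 57.4, 84.0, 73.2 and 65.8 CPM to 1610, 1797, 1220 and 1148 CPM (log2 fold change 4.36, SE 0.14, adjusted p = 4.79e-34). Activated replicates 1 and 2 of Nfkbia lay above 3 and 4, but all were more than 10-fold above the highest resting library. The subunit gene Rel went from 53.3, 34.4, 42.8 and 37.8 CPM to 472, 438, 650.0 and 619 CPM (log2 fold change 3.69, SE 0.20, adjusted p = 4.95e-23). Nfkb1, Nfkb2, Relb and Rela rose by 3.35, 3.11, 1.75 and 1.48.

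Immediate early factors, which respond within minutes and decay quickly, rose more often than they fell at 3 h. Of 26 genes, 14 rose, 7 fell and 5 were not called, and the share that fell was near the 31.8% of all tested genes. Maff, Cebpd and Nr4a3 led the rises with 4.45, 4.15 and 3.72, and Junb, Klf6 and Atf3 rose by 2.32, 2.31 and 1.73. Fos, the AP-1 subunit, fell from 466, 498, 371 and 369 CPM to 106, 81.0, 73.6 and 73.7 CPM (log2 fold change -2.35, SE 0.24, adjusted p = 1.29e-12). Nr4a1, Fosb and Egr3 fell by 2.97, 2.63 and 1.57 and Jun by 0.63, so that resting cells held the higher levels of these. In replicates 3 and 4 alone, 10 of the 26 rose and 5 fell, with a median of 0.26 in place of 0.82.

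Nearly all tested pro-inflammatory cytokines rose. Of 18, Il33 and Ifng were too low to test, 15 rose, none fell, and Osm alone was not called. Members without a resting count, such as Il12b and Il12a, passed the filter through other groups and could not fall. The counts of this list are therefore in part set by the filter. The median log2 fold change was 8.93, or 5.29 when genes without resting counts are set at their lower bounds. Tnf went from 20.0, 23.9, 22.5 and 24.9 CPM to 5871, 5774, 5331 and 5304 CPM (log2 fold change 7.93, SE 0.16, adjusted p = 6.78e-43). Il1b went from 8.24, 8.72, 7.03 and 5.24 CPM to 5657, 6002, 4245 and 3751 CPM (log2 fold change 9.39, SE 0.38, adjusted p = 5.07e-29), and Il1a from 0.570, 0.451, 0.882 and 0.678 CPM to 1479, 1421, 1867 and 1733 CPM (log2 fold change 11.28, SE 0.33, adjusted p = 2.67e-35). The libraries of a state lay close together for Tnf and Il1a, while Il1b was lower in activated replicates 3 and 4 than in 1 and 2. Il6 went from 0.475, 0.339, 0.365 and 0.768 CPM to 373, 345, 609.5 and 571 CPM (log2 fold change 9.96, SE 0.38, adjusted p = 3.56e-30), with the higher activated levels in replicates 3 and 4.

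The subunits of the IL-12 family were among the sharpest changes. Il12b, the shared p40 subunit of IL-12 and IL-23, had no count in any resting library and 68.7, 63.6, 137 and 104 CPM after hk S.E., which is at least 859-fold above the floor of 3 counts per library (adjusted p = 2.00e-26). Il12a was also at 0 in all resting libraries and reached 9.53, 7.96, 7.85 and 7.16 CPM, at least 74.8-fold higher. Il23a, Csf2 and Csf3 started from 0 as well and rose at least 19.4-fold, 23.1-fold and 17.6-fold. Il27 rose by 9.73, its partner Ebi3 by 2.01, Il15 by 5.65 and Il18, which the inflammasome matures, by 2.87. Osm, oncostatin M, had 7.32, 7.41, 5.66 and 5.47 CPM at rest and 7.16, 8.47, 5.51 and 4.73 CPM after activation (log2 fold change 0.00, SE 0.22, adjusted p = 0.99), so the groups lay on top of each other.

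Anti-inflammatory genes rose beside them but by less. Of 8 tested, 6 rose, none fell, and Tgfb1 (0.07) and Il10rb (0.16, adjusted p = 0.0185) were not called, with a median of 1.66. Il10rb was called when activated replicate 2, 3 or 4 was left out, with adjusted p between 0.00167 and 0.00591. Il1rn, the antagonist of IL-1, went from 23.0, 14.1, 20.5 and 18.2 CPM to 539.7, 507, 497 and 516 CPM (log2 fold change 4.76, SE 0.30, adjusted p = 9.74e-21). Il10 went from 0.919, 0.526, 0.821 and 1.08 CPM to 7.66, 9.70, 4.72 and 4.79 CPM (log2 fold change 3.01, SE 0.34, adjusted p = 4.08e-11), and its activated replicates 1 and 2 lay above 3 and 4. The decoy receptor gene Il1r2 rose by 2.82 over all 8 libraries, but by 1.88 with an adjusted p of 0.0662 with replicates 3 and 4 alone.

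Chemokines for neutrophils, monocytes and T cells all took part. Of 23 tested, 20 rose, Cxcl14 fell by 0.57, and the platelet chemokine genes Pf4 (0.58, adjusted p = 0.144) and Ppbp (1.28, adjusted p = 0.165) were not called, with a median of 6.90, or 6.21 with the lower bounds. With DESeq2 size factors in edgeR, 20 rose and 0 fell. Here too, members without a resting count, such as Cxcl11, passed the filter through other groups and could not fall. Ccl3 went from 13.7, 17.9, 15.5 and 14.7 CPM to 6432, 6234, 5250 and 4876 CPM (log2 fold change 8.53, SE 0.24, adjusted p = 9.63e-36) and Ccl4 from 9.91, 8.65, 9.79 and 9.98 CPM to 5052, 5080, 4405 and 4344 CPM (log2 fold change 8.94, SE 0.22, adjusted p = 8.93e-39). Per kilobase of exon, the activated means of Ccl3 and Ccl4 were 7439 and 7152 CPM, close to Ftl1, the ferritin light chain, at 7165 CPM and below Lyz2 at 16913 CPM. At rest the same measure gave 20.2 CPM per kilobase for Ccl3 and 14.5 for Ccl4. These genes thus moved from low levels to among the 5 highest per kilobase.

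Cxcl10, an attractant of T cells with both an ISRE and kB matches in its promoter, went from 3.23, 3.69, 4.23 and 5.92 CPM to 8834, 7989, 9113 and 8762 CPM (log2 fold change 11.00, SE 0.45, adjusted p = 1.00e-28). Its neighbours on chromosome 5 also rose, Cxcl9 by 10.85 and Cxcl11 from 0 in all resting libraries to 55.5, 49.2, 85.7 and 84.5 CPM, at least 633-fold higher. Cxcl1, a neutrophil attractant, went from 0.729, 0.978, 0.578 and 0.587 CPM to 494, 701, 535 and 448 CPM (log2 fold change 9.56, SE 0.51, adjusted p = 1.13e-23), and Cxcl2 and Cxcl3 rose by 8.56 and 10.14. The monocyte attractants Ccl2, Ccl7 and Ccl12 rose by 5.75, 6.21 and 8.55, Ccl5 by 6.90 and Ccl22 by 8.62. Ccl6 rose by only 0.37.

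**Figure D2:**
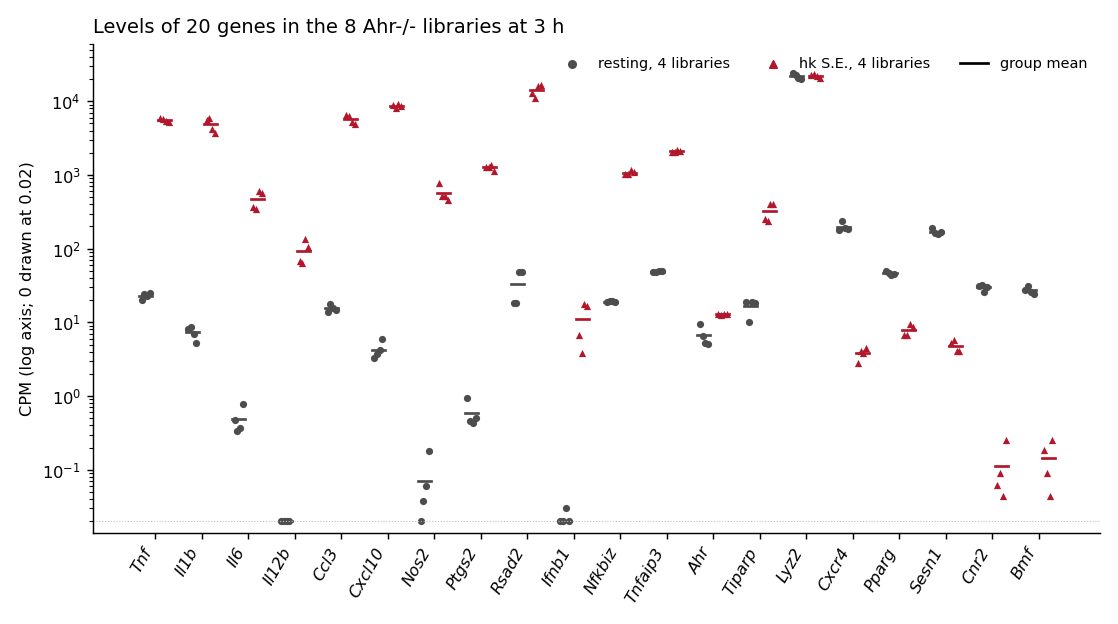
Levels of 20 genes in each of the 4 resting (grey circles) and 4 activated (red triangles) libraries of Ahr-/- BMMs at 3 h, in CPM on a log axis with 0 drawn at 0.02 and short lines at the group means. The groups do not overlap for 19 of the 20 genes, with the narrowest gap for Ahr, and Lyz2 overlaps. The genes were picked for display, several of them by a rule that asks for no overlap, so this count describes the figure only. Of all tested genes, 55.2% did not overlap.

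Receptors for chemokines and related signals included large changes both ways. Of 13 tested, 6 rose, 3 fell and 4 were not called, against 25.5% of all tested genes that rose and 31.8% that fell. Cxcr4, the Cxcl12 receptor that retains cells in the marrow, fell from 179, 236, 188 and 183 CPM to 2.80, 4.07, 3.84 and 4.47 CPM (log2 fold change -5.69, SE 0.17, adjusted p = 4.26e-35), the largest fall of any list member, and resting replicate 2 stood above the others. Cx3cr1, the fractalkine receptor, fell from 266, 314, 303 and 298 CPM to 48.5, 61.5, 60.5 and 54.6 CPM (log2 fold change -2.39, SE 0.25, adjusted p = 2.22e-12), and Ccr2, the receptor for Ccl2, fell by 2.12. Ccrl2, which presents chemerin and does not signal, went from 7.51, 7.82, 7.30 and 7.05 CPM to 674, 669.7, 671 and 659.8 CPM (log2 fold change 6.49, SE 0.22, adjusted p = 1.54e-32). The formyl peptide receptors Fpr1 and Fpr2, which sense bacterial peptides, rose by 4.82 and 4.84, and Ccr7 by 3.02.

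The interferon arm was active at 3 h. Ifnb1 had 1 count in the resting libraries together and 849 in the activated ones, a ratio of 1260 with a counting interval of 226 to 49841. Its activated levels were 6.67, 3.80, 17.6 and 16.7 CPM, with replicates 3 and 4 above 1 and 2. Of 19 interferons, receptors and their factors, 16 rose and 2, Irf3 (-0.31, adjusted p = 0.118) and Irf4, were not called, while the receptor gene Ifngr1 fell by 0.74. Irf1 went from 35.3, 44.4, 48.4 and 44.6 CPM to 1187, 1028, 1319 and 1319 CPM (log2 fold change 4.81, SE 0.13, adjusted p = 3.36e-36). Jak2, Stat2, Irf8 and Irf9 rose by 4.37, 2.71, 1.38 and 1.24. Irf7, which amplifies the response, had 56.5, 98.5, 270.0 and 284 CPM at rest and 1115, 1011, 1060 and 1017 CPM after activation (log2 fold change 2.57, SE 0.28, adjusted p = 6.71e-12), so that the resting libraries spread about 5-fold while the activated ones lay together.

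ISGs rose almost without exception. Of 48 tested, 47 rose, none fell, and Ifi27l2a (0.40, adjusted p = 0.0522) was not called, with a median of 4.36. Rsad2, the antiviral enzyme viperin, went from 18.1, 18.2, 48.8 and 48.6 CPM to 13157, 11154, 16342 and 16396 CPM (log2 fold change 8.74, SE 0.56, adjusted p = 2.62e-20), and its neighbour Cmpk2 from 13.8, 12.2, 33.4 and 31.9 CPM to 6630, 5253, 7547 and 7807 CPM (log2 fold change 8.22, SE 0.48, adjusted p = 4.42e-22). Gbp5, a guanylate-binding protein that acts with the inflammasome, went from 1.90, 1.28, 2.56 and 2.98 CPM to 2596, 2172, 2516 and 2345 CPM (log2 fold change 10.12, SE 0.33, adjusted p = 4.30e-33). The 2 ISGs whose ISREs are shown above gave values of the same kind. Ifit1, which binds foreign RNA, went from 12.3, 14.6, 47.1 and 49.9 CPM to 3931, 3312, 5250 and 5338 CPM (log2 fold change 7.17, SE 0.46, adjusted p = 3.81e-20), and Isg15, a ubiquitin-like modifier, from 10.6, 16.6, 34.7 and 34.8 CPM to 1039, 1022, 849 and 836 CPM (log2 fold change 5.28, SE 0.24, adjusted p = 1.81e-26). Reads of near-identical members such as Ifit3 and Ifit3b, the Gbp and the Slfn genes can be split between copies, so single values of these are uncertain.

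The resting ISG level was not the same in all knockout libraries. In all 48 tested ISGs, both resting replicates 3 and 4 lay above both of 1 and 2, and the ISGs summed to 1498, 1617, 3195 and 3136 CPM in replicates 1 to 4. After activation the sums were 60821, 52065, 72642 and 71243 CPM, so the ratio of the pairs went from 2.03 to 1.27, and 33 ISGs kept the order while 4 had it reversed. The response was large within each pair. With replicates 1 and 2 alone 47 ISGs rose with a median of 5.03, and with 3 and 4 alone 47 rose with a median of 3.91. The fibroblast markers given above stood apart by the same pairs, and their part in this split was not tested.

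**Figure D3:**
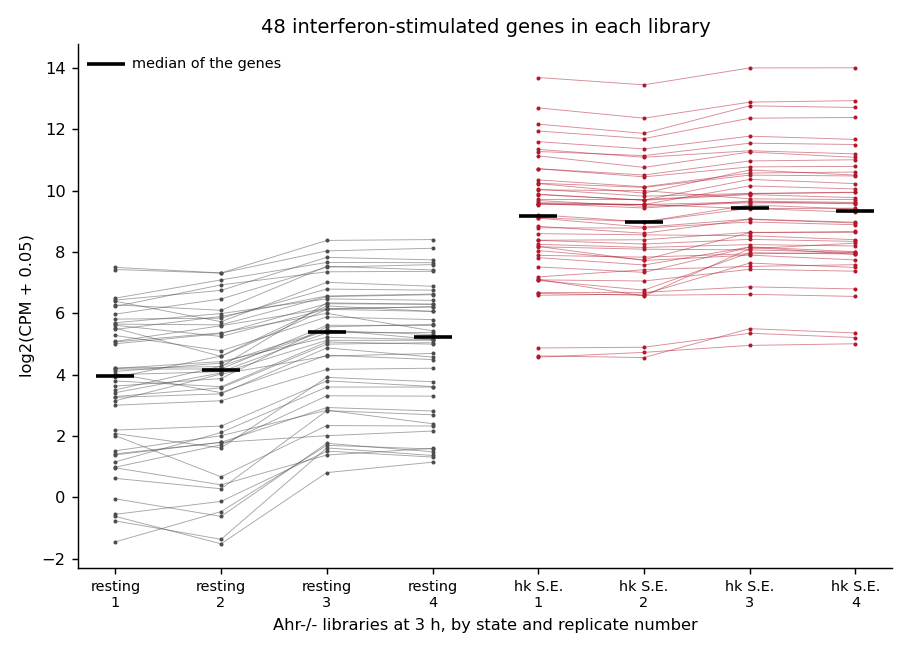
Levels of the 48 tested ISGs as log2(CPM + 0.05) in each of the 8 libraries of Ahr-/- BMMs at 3 h, 1 point per gene, thin lines joining a gene's libraries of 1 state and a bar at the median. The 4 activated libraries lie several units above the resting ones, and resting replicates 3 and 4 lie above 1 and 2.

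More of the genes for antimicrobial and mediator enzymes rose than fell, with Nos2 and Ptgs2 starting from low levels. Of 28 tested, 19 rose, Ptgs1 fell by 1.25, and 8 were not called, with a median of 2.01, while 25.5% of all tested genes rose. Nos2, which makes nitric oxide, had 0, 0.0376, 0.0608 and 0.181 CPM at rest and 768, 524, 514 and 453 CPM after hk S.E. (log2 fold change 13.06, SE 0.57, adjusted p = 1.57e-27). Ptgs2, the inducible cyclooxygenase, went from 0.950, 0.451, 0.426 and 0.497 CPM to 1303, 1285, 1350 and 1140 CPM (log2 fold change 11.06, SE 0.33, adjusted p = 5.76e-35), and Ptges, the next enzyme towards prostaglandin E, rose by 6.05. Acod1, which makes itaconate, went from 30.4, 43.6, 78.3 and 86.0 CPM to 12212, 11772, 12010 and 11806 CPM (log2 fold change 7.65, SE 0.26, adjusted p = 9.98e-33). In these 3 genes the resting libraries differed by 2-fold or more among themselves and all were more than 100-fold below the activated ones. Ch25h and the arginine transporter gene Slc7a2 rose by 7.65 and 7.22, Sod2 by 3.64, Lcn2 by 3.60, Saa3 by 3.97 and the scavenger receptor gene Marco by 2.19. Arg1 (-0.62), Hmox1 and Cyba were not called.

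Surface molecules that address lymphocytes followed. Of 19 costimulatory, adhesion and TNF family genes, 18 rose and Pdcd1lg2 was not called, with a median of 4.10. Cd40 went from 2.25, 2.82, 3.65 and 3.66 CPM to 1071, 1128, 1012 and 899 CPM (log2 fold change 8.38, SE 0.21, adjusted p = 1.91e-38), and Cd69 from 2.79, 2.41, 4.17 and 3.30 CPM to 2112, 1735, 3428 and 3407 CPM (log2 fold change 9.71, SE 0.28, adjusted p = 6.92e-36). Icam1, an adhesion molecule, went from 66.7, 88.5, 75.6 and 80.9 CPM to 2464, 2538, 2354 and 2243 CPM (log2 fold change 4.94, SE 0.10, adjusted p = 5.94e-43). Tnfsf15, Vcam1, Cd274 and Cd83 rose by 9.81, 7.97, 4.54 and 3.41, while the classical costimulators Cd80 and Cd86 each rose by 1.20. MHC class II genes moved less. Of 9, 6 rose, H2-DMb1 fell by 0.39 and 2 were not called, with H2-Ab1 going from 4.28, 8.20, 3.98 and 5.15 CPM to 35.2, 37.8, 14.6 and 18.6 CPM and Ciita, its transactivator, rising by 2.59. With only replicates 1 and 2, 3 of the 9 rose, and with only 3 and 4, 2 did. In the fit of all libraries, 25.5% of all tested genes rose and 31.8% fell.

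Many brakes on the response rose at the same time. Of 32 inhibitors of signaling and mRNA decay factors, 21 rose, 7 fell and 4 were not called, with a median of 1.05. Of all tested genes, 25.5% rose and 31.8% fell. Tnfaip3, the deubiquitinase A20 that restrains NF-kB, went from 48.0, 47.9, 49.8 and 50.2 CPM to 2036, 2037, 2177 and 2098 CPM (log2 fold change 5.41, SE 0.10, adjusted p = 4.60e-43), with the libraries of each state close together. Socs3, an inhibitor of JAK kinases, went from 5.20, 7.33, 5.14 and 6.55 CPM to 1745, 1691, 1219 and 1150 CPM (log2 fold change 7.91, SE 0.21, adjusted p = 1.67e-37) and Socs1 from 0.158, 0.602, 0.395 and 0.678 CPM to 177, 173, 163 and 169.6 CPM (log2 fold change 8.59, SE 0.35, adjusted p = 4.46e-29). Dusp2, a phosphatase of MAP kinases, rose by 6.83, Cish by 6.02, Peli1 by 4.72, Zc3h12a, the RNase regnase-1, by 3.23, Tnip1 by 3.05 and Irak3 by 2.54. The family of AU-rich element binders divided. Zfp36, tristetraprolin, rose by 2.35, whereas Zfp36l2 fell from 177, 194, 163 and 151 CPM to 11.0, 9.84, 7.85 and 9.27 CPM (log2 fold change -4.18, SE 0.15, adjusted p = 7.80e-32) and Zfp36l1 fell by 3.47. The phosphatase genes Dusp5, Dusp6 and Dusp7 fell by 1.19, 1.35 and 1.84, and Sigirr, a decoy of IL-1 receptor signaling, by 1.49.

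By a rule on size, 15 genes with the largest rises and 15 with the largest falls were set apart among protein-coding DEGs whose groups did not overlap and whose higher group had a mean of at least 10 CPM. The rises were mostly cytokines, chemokines and enzymes described above (Il12b, Nos2, Il1a, Ptgs2, Cxcl10, Cxcl9, Cxcl3, Gbp5 and Il6). Shisa3, a membrane protein gene, was at 0 in all resting libraries and had 118, 155, 82.8 and 78.8 CPM after activation, at least 1000-fold higher. U90926 went from 0 to 22.9, 26.0, 14.7 and 19.4 CPM, at least 191-fold higher. Edn1, endothelin-1, had 3 counts at rest and 10926 after hk S.E., a ratio of 5407 with an interval of 1850 to 26222, and Lad1 had 1 and 2191, a ratio of 3253 with an interval of 583 to 128533. The protease gene Adamts4 rose by 10.15 and the protease inhibitor gene Serpina3f by 9.97.

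Among the falls, Cnr2, the cannabinoid receptor of immune cells, went from 30.9, 32.5, 26.0 and 30.4 CPM to 0.0623, 0.0915, 0.0441 and 0.256 CPM (log2 fold change -8.09, SE 0.29, adjusted p = 4.31e-31). Bmf, a pro-apoptotic BH3-only protein gene, went from 27.6, 31.1, 25.8 and 24.3 CPM to 0.187, 0.0915, 0.0441 and 0.256 CPM (log2 fold change -7.64, SE 0.28, adjusted p = 1.15e-30). In both, the activated libraries hold so few counts that their own order carries no weight, but each lay more than 90-fold below every resting one. Sesn1, a p53 target that restrains mTORC1, went from 189.5, 164, 157 and 168 CPM to 5.29, 5.72, 4.15 and 4.09 CPM (log2 fold change -5.14, SE 0.21, adjusted p = 6.79e-29). Zfp395, Angptl4, Fam214a, Engase, Fbxo32 and Fam78a fell by 6.33, 5.70, 5.56, 5.50, 5.27 and 5.17. Lpar6, Arrdc3, Lyl1, Rab3il1 and Tmem86a fell by 4.99, 4.92, 4.89, 4.88 and 4.84.

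Genes of the resting macrophage fell only in part at 3 h. Of 39 tested, 14 fell, 8 rose and 17 were not called, with a median of -0.19, and the share that fell was close to the 31.8% of all tested genes. Pparg, a lipid-sensing nuclear receptor, fell from 49.0, 47.3, 43.2 and 45.0 CPM to 6.73, 6.68, 9.53 and 8.63 CPM (log2 fold change -2.55, SE 0.16, adjusted p = 3.42e-20). Hpgd, which degrades prostaglandins, fell by 2.87, Mef2c by 2.50 and Mertk, a receptor for apoptotic cells, by 1.78. The related receptor gene Axl rose by 1.48, the scavenger receptor gene Msr1 by 1.92 and Spi1, the factor PU.1, by 1.44. The complement genes C1qa, C1qb and C1qc had log2 fold changes of 0.04, 0.19 and 0.00 and were not called, nor was Mrc1, the mannose receptor, at -0.27. Apoe had 1706, 3343, 1818 and 1607 CPM at rest and 2850, 3028, 1731 and 1469 CPM after hk S.E. (log2 fold change 0.10, SE 0.27, adjusted p = 0.768), with replicate 2 high in the resting state.

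Most cell cycle genes fell. Of 34, 26 fell, 2 rose and 6 were not called, with a median of -1.06, while 31.8% of all tested genes fell. E2f2, an activator of S phase genes, fell from 22.3, 23.4, 21.7 and 22.9 CPM to 0.810, 0.824, 1.19 and 0.703 CPM (log2 fold change -4.65, SE 0.22, adjusted p = 4.28e-26), and Ccne2, Ccnd1 and Mcm2 fell by 2.44, 2.26 and 1.87. The 2 that rose were Ccnd2, a cyclin D, from 7.38, 6.09, 6.33 and 6.55 CPM to 304, 279, 284 and 252 CPM (log2 fold change 5.41, SE 0.24, adjusted p = 3.07e-27), and Cdkn1a, the cell cycle inhibitor p21, from 184, 243, 243 and 252 CPM to 2202, 2435, 1827 and 1799 CPM (log2 fold change 3.16, SE 0.12, adjusted p = 1.22e-29). Mki67, the proliferation marker, was not called (0.37, adjusted p = 0.0622). When the test asked for a change beyond 2-fold, 11 of the 34 fell.

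Most apoptosis and survival genes rose, while 25.5% of all tested genes did. Of 24 tested, 16 rose and 6 were not called, while Bcl2, which protects from apoptosis, and Pmaip1, which promotes it, fell by 1.63 and 1.23. Cflar, the inhibitor of caspase-8 activation, went from 78.7, 56.2, 69.6 and 78.9 CPM to 1356, 1266, 1887 and 1777 CPM (log2 fold change 4.47, SE 0.21, adjusted p = 3.93e-26), Gadd45b rose by 4.40, Birc3 by 2.72 and Casp4, the caspase that senses cytosolic lipopolysaccharide, by 3.38. Bcl2a1a, Bcl2a1b and Bcl2a1d rose by 5.89, 3.91 and 6.28, and since these copies are near-identical their single values are uncertain.

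Glycolysis and HIF-1 targets were mixed in size. Of 24, 12 rose, Vegfa fell, and 11 were not called, with a median of 0.49, while 25.5% of all tested genes rose and 31.8% fell. Pfkfb3, which raises glycolytic flux, went from 26.4, 27.9, 27.7 and 27.2 CPM to 217, 217, 125 and 109 CPM (log2 fold change 2.61, SE 0.21, adjusted p = 9.71e-17), Hk2 rose by 2.47, the glucose transporter gene Slc2a1 by 2.13 and Hif1a by 1.45. Vegfa fell from 136, 183, 91.0 and 64.7 CPM to 34.3, 39.6, 17.0 and 13.7 CPM (log2 fold change -2.18, SE 0.34, adjusted p = 1.05e-07). For both Pfkfb3 and Vegfa the activated levels were higher in replicates 1 and 2 than in 3 and 4. With 3 and 4 alone 7 of the 24 rose. Of 22 sterol genes, 8 rose and 6 fell, again near the shares of all genes. Idi1, Insig1 and Srebf2 rose by 1.69, 1.34 and 0.86, while Dhcr7, Lss and Mvd fell by 2.11, 1.27 and 1.25. Of 12 mitochondrially encoded protein genes only mt-Nd4 passed the test, at 0.51 with an adjusted p of 0.0098, and it failed without activated replicate 3 or 4 or resting replicate 2, 3 or 4, with adjusted p between 0.0125 and 0.0721. All 12 genes were higher in both activated replicates 3 and 4 than in 1 and 2, with sums of 10326, 10056, 14847 and 15945 CPM in replicates 1 to 4, and resting replicate 2 had the lowest sum, 5852 CPM against 9628 to 12898 CPM. The median log2 fold change of the 12 was -0.04 with replicates 1 and 2 alone and 0.70 with 3 and 4 alone, and mt-Nd4 passed the test in neither.

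Genes of the AhR pathway moved in both directions in the knockout. Of 13 tested, 4 rose, 3 fell and 6 were not called, with a median of 0.04, shares near those of all tested genes, and the enzyme genes Cyp1a1, Cyp1a2, Cyp1b1 and Aldh3a1 were too low to test. Tiparp, a mono-ADP-ribosyltransferase that restrains AhR, went from 19.0, 10.0, 18.7 and 18.4 CPM to 250.5, 237, 406 and 405 CPM (log2 fold change 4.29, SE 0.30, adjusted p = 1.05e-18). Ahrr, the AhR repressor, fell from 2.15, 1.80, 2.10 and 1.81 CPM to 0.125, 0.275, 0.221 and 0.320 CPM (log2 fold change -3.04, SE 0.30, adjusted p = 2.78e-13), and Spint1 and Il21r fell by 3.29 and 0.90. Nfe2l2 and the chaperone gene Hsp90ab1 rose by 0.60 and 0.56. Arnt (-0.08) and Nqo1 (0.04) were not called. With knockout replicates 3 and 4 alone, 2 of the 13 rose and 3 fell.

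**Figure D4:**
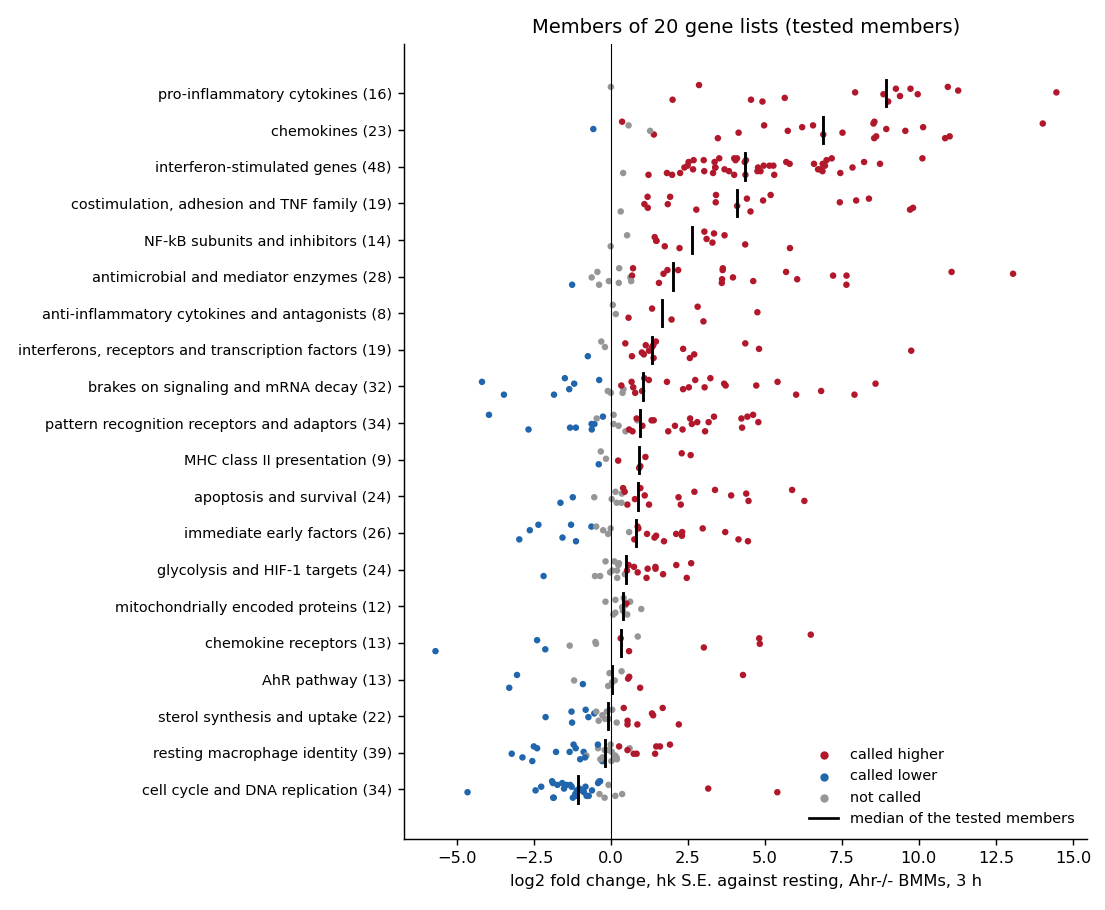
Log2 fold changes (hk S.E. against resting, Ahr-/- BMMs, 3 h) of the tested members of 20 gene lists, 1 point per gene, red where called higher, blue where called lower and grey where not called, with a black bar at the median and the number of tested members after each name. Cytokines and chemokines have the highest fitted medians, 8.93 and 6.90, but in the other order, 5.29 and 6.21, with genes without resting counts at their lower bounds, and cell cycle genes have the lowest, -1.06.

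The same activation in Ahr+/+ BMMs asks which of these changes need AhR. There, 8222 genes were DEGs (56.6%), and 7456 genes were DEGs in both genotypes with the same direction, 1 with opposite directions, 873 in the knockout only and 765 in the wild type only. These counts alone do not show a difference, which the interaction of genotype and activation tests. It called 2 genes, 0.0138% of those tested. An unadjusted p below 0.05 was found for 867 genes, 5.96% of those tested, where the threshold alone gives a share of 0.05 if no gene differs. For 9821 genes (67.6%) the 95% interval of the difference lay within 1 log2 unit of 0. That held for 14 of 14 NF-kB genes, 34 of 34 cell cycle genes and 30 of 34 sensors and adaptors, but for only 24 of 48 ISGs, 7 of 16 cytokines and 4 of 23 chemokines, so that for many of the latter a difference of 2-fold lay within the interval. Medians of the lists in the knockout and the wild type were 2.64 and 2.64 for NF-kB genes, 4.36 and 4.87 for ISGs and -1.06 and -0.97 for cell cycle genes. They were 0.82 and 0.43 for immediate early factors. For pro-inflammatory cytokines the fitted medians were 8.93 and 7.77, and for chemokines 6.90 and 6.60, with some genes at 0 in resting knockout libraries.

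Rcsd1 (chr1:165646516-165709757), which encodes the actin capping regulator CapZIP, rose further in the knockout. It went from 33.4, 32.8, 29.8 and 30.1 CPM to 155, 167, 141 and 135 CPM in Ahr-/- BMMs and from 32.8, 35.2, 32.1 and 32.5 CPM to 83.9, 84.5, 98.9 and 85.6 CPM in Ahr+/+ BMMs. Resting levels overlapped between the genotypes, and all activated knockout libraries lay above all activated wild-type ones. The log2 fold changes were 2.24 and 1.41, a difference of 0.83 (SE 0.13, 95% interval 0.58 to 1.09, adjusted p = 5.70e-04), and it passed the test without any single library of these groups. Enc1 (chr13:97241105-97253034), which encodes an actin-binding kelch protein, fell further in the knockout. It went from 122, 122, 104 and 107 CPM to 27.3, 25.5, 32.1 and 33.2 CPM in Ahr-/- BMMs and from 61.2, 65.4, 62.9 and 55.5 CPM to 27.8, 39.8, 28.9 and 31.1 CPM in Ahr+/+ BMMs, and the resting levels of the genotypes lay further apart than the activated ones. The difference of its changes was -1.01 (SE 0.17, interval -1.35 to -0.66, adjusted p = 0.00323), and it was lost, with adjusted p of 0.0102 to 0.0857, without resting replicate 1 or 2 or activated replicate 1, 2 or 3 of the knockout, or resting replicate 1 or 4 or activated replicate 2 or 4 of the wild type. With knockout replicates 3 and 4 alone the adjusted p was 0.0291 for Rcsd1 and 0.456 for Enc1. An edgeR fit of the compared groups only called neither Rcsd1 nor Enc1 (adjusted p = 0.0199 and 0.064). With a replicate block in that fit the adjusted p was 0.0404 and 0.103. DESeq2 on the compared groups called both (adjusted p = 8.63e-08 and 6.56e-05), so the calls depend on the tool. Library identifier series are not spread evenly over these groups, and with the series as a covariate Rcsd1 alone was called. The genotypes also come from separate mouse lines, so a difference of AhR and one of line cannot be told apart.

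No member of any list was called by this test. Ccl4 came nearest among the chemokines, with 8.94 in the knockout and 8.04 in the wild type (adjusted p of the difference 0.126). Tiparp rose by 4.29 and 4.51, Ahrr fell by 3.04 and 2.62, and Ahr rose by 0.95 and 1.11 in the knockout and the wild type. For Ahr the interval of the difference was -0.74 to 0.43.

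The Ahr-/- libraries at 20 h show how the changes at 3 h compare with those at a later time. There, 7898 genes were DEGs (54.3%) against resting cells of that time point. By the interaction of time and activation, 3665 genes (25.2%) had a more positive change at 20 h and 2826 (19.4%) a more negative one. This balance depends on the scaling, with 3259 and 3289 genes by DESeq2, 3127 and 3167 with its size factors in edgeR and 3116 and 3256 by limma on the deposited log2 values. Several lists that rose early had more negative changes by then, which for a gene that fell is a larger change. The change was more negative at 20 h for 19.4% of all tested genes but for 11 of 14 NF-kB genes, 26 of 48 ISGs, 13 of 23 chemokines, 12 of 19 costimulation genes and 17 of 34 sensors and adaptors. Of 16 pro-inflammatory cytokines, 5 had a more negative change and 2 a more positive one. A more negative change did not mean that a rise was absent. Called higher at 20 h were 12 NF-kB genes, 47 ISGs, 17 chemokines, 15 costimulation genes and 19 sensors and adaptors. Called lower were 1, 0, 5, 1 and 7 of them, in that order. Over all 14537 tested genes, 4115 were called higher and 3783 lower. The log2 fold change of Cxcl10 was 11.00 at 3 h and 6.51 at 20 h, with 4.81 and 1.23 for Irf1, 3.69 and 0.48 for Rel, and 2.35 and -1.71 for Zfp36. Dll1, a Notch ligand gene, went from 0, 0, 0.0608 and 0.0904 CPM to 14.6, 12.3, 14.8 and 15.6 CPM at 3 h, but at 20 h from 0.0927, 0.185, 0.115 and 0.0951 CPM to 0.0317, 0, 0.147 and 0 CPM, both around the level of 3 counts per library (interaction adjusted p = 1.48e-13).

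Other groups had larger changes at 20 h. The change was more positive at 20 h for 25.2% of all tested genes and for 18 of 28 mediator enzymes, among them Lcn2 with 3.60 and 9.46, Saa3 with 3.97 and 9.95 and Marco with 2.19 and 6.90 at 3 h and 20 h. Aqp9, a water and glycerol channel gene, had 0.90 and then 8.37. Il6 reached 1021, 569.6, 454 and 465 CPM at 20 h, with 0.0618, 0, 0 and 0.0761 CPM in the resting libraries of that time. Conversely, 22 of 39 identity genes and 26 of 34 cell cycle genes had more negative changes at 20 h, with medians of -1.52 and -3.45 in place of -0.19 and -1.06. Mrc1 had log2 fold changes of -0.27 at 3 h and -7.98 at 20 h, and C1qa of 0.04 and -2.48. Slco2b1, an organic anion transporter gene, had -3.43 at 3 h and at 20 h went from 19.9, 18.4, 15.8 and 13.4 CPM to no count in any activated library. The mitotic genes Ube2c and Kif4 had 0.08 and 0.31 at 3 h and -7.89 and -7.13 at 20 h. The mitotic genes Pbk and Aspm and, outside the lists, Nptx1 had -1.40, -1.81 and -1.54 at 3 h, and in the activated libraries at 20 h each lay below the level of 3 counts per library, from resting levels of 9.22 to 23.9 CPM for Pbk, 12.9 to 25.5 CPM for Aspm and 26.7 to 43.5 CPM for Nptx1. Pcp4l1, outside the lists, had -1.12 at 3 h and -8.62 at 20 h.

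**Figure D5:**
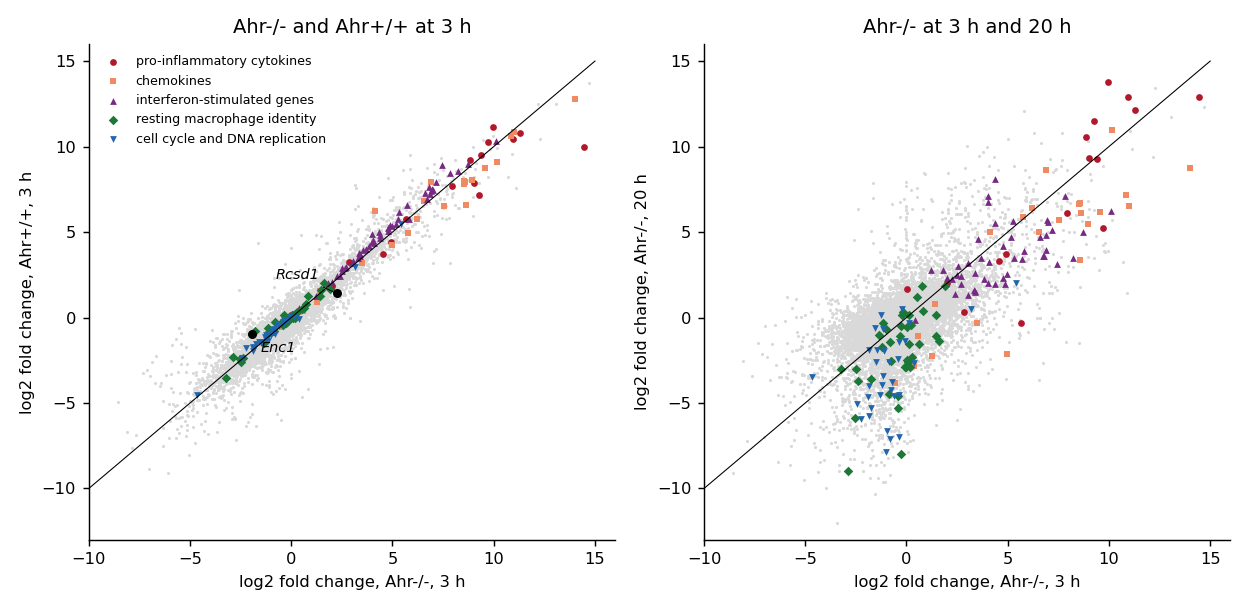
Log2 fold changes of tested genes in Ahr-/- BMMs at 3 h on the x axis against Ahr+/+ BMMs at 3 h on the left and Ahr-/- BMMs at 20 h on the right, with 5 lists in colour and a line where both are equal. On the left the points follow the line (Pearson r across genes 0.95, a description, since genes are not replicates) and Rcsd1 and Enc1 are marked, and on the right they scatter (r 0.60), with cell cycle genes below the line.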

How the data were processed

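The study sequenced stranded mRNA libraries of BMMs paired-end on 1 flow cell. The authors deposited whole-number counts per gene, made with HISAT2 2.1.0 on mm10, GENCODE M22 and HTSeq 0.9.1 in the strict intersection mode on the gene's strand, after bcl2fastq 2.19.0.316, as the submitters' processing notes and the methods give them. They also deposited log2 values (a variance-stabilizing transformation by DESeq2), used here only as an alternative. Strict intersection drops pairs that reach beyond exons. The 5 entries per library that name no gene were left out, so that 75.0% to 77.8% of the read pairs of the 8 libraries entered. Pairs on no gene, which are 1 of these entries, made up 3.94% to 5.92% of all read pairs. Positions are from GENCODE M21 on GRCm38, which matched 55394 of 55487 genes.

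Samples were grouped by their titles. Counts of all 64 libraries were filtered by group with filterByExpr at a minimum count of 10 and TMM-normalized. The factors were 1.306 to 1.338 in the 4 resting and 0.822 to 0.844 in the 4 activated libraries. The counts entered the quasi-likelihood fit of edgeR 4.0.16 (R 4.3.3) as 16 groups, with 48 residual and 5.06 prior degrees of freedom. The SE is the log2 fold change divided by the square root of the F statistic. CPM are counts per 1000000 counts on tested genes, with each library size multiplied by its TMM factor. Interactions tested genotype and time. Genes at 0 in a group were set against a floor of 3 counts per library, and genes with 1 to 3 counts got a ratio with an exact 95% interval, which covers counting error only.

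Named genes were the 15 largest rises and 15 largest falls under the rule in the text, Ahr, members of 20 pathway lists and 8 marker lists, up to 10 genes per interaction, and the 5 genes with the highest counts per kilobase and the 5 with the smallest adjusted p. The members and lists were chosen with earlier results of these data known. Alternatives were DESeq2 1.42.0, limma 3.58.1 on the log2 values, other filters, size factors and thresholds, a test against a fold of 2, the compared groups only, a replicate block, the series of library identifiers, and leaving out each library. Fits with knockout replicates 1 and 2 or 3 and 4 only were added after seeing the data. The tests were tested on simulated data. Libraries with BaP or I3C entered the fit but were not compared. Some genes are not reported here.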

Additional observations from a re-analysis of the deposited data

Results flagged for a closer look

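In 190 sets of 4 libraries of 1 state, 9 had a library far from the other 3 by Dixon's test at the 95% level, where chance alone flags about 1 set in 20. Resting replicate 2 was the distant one in 6 of them. It was high for Cxcr4, at 236 CPM against 179, 188 and 183, for Engase, at 34.4 CPM against 19.5, 20.5 and 20.6, for Pcp4l1, at 52.1 CPM against 42.5, 41.8 and 40.6, for Irf3, at 47.6 CPM against 29.5, 31.3 and 29.7, and for Apoe, at 3343 CPM against 1706, 1818 and 1607. It was low for Tiparp, at 10.0 CPM against 19.0, 18.7 and 18.4. Resting replicate 1 was low for Cdkn1a, at 184 CPM against 243, 243 and 252. Activated replicate 3 was high for Nr4a3, at 13.1 CPM against 10.9, 10.9 and 11.2. Resting replicate 4 had 5.63% of its read pairs in the entry for low alignment quality, against 1.31%, 1.98% and 1.80%.

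Among comparisons of responses, 2 genes differed between the genotypes by the interaction test of edgeR at an adjusted p below 0.01. The log2 fold change of Rcsd1 was higher in Ahr-/- than in Ahr+/+ BMMs by 0.83 (adjusted p = 5.70e-04), and that of Enc1 differed by -1.01 (adjusted p = 0.00323).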

How the results depend on the processing

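No called change of a named gene turned its direction in any alternative. List medians near 0 did. With replicates 1 and 2 only, the median went from 0.41 to -0.04 for mitochondrial genes, from -0.10 to 0.14 for sterol genes and from 0.04 to -0.04 for the AhR pathway, whose median was also -0.01 with the identifier series and -0.03 without resting replicate 1 or activated replicate 3, while that of sterol genes was 0.03 without activated replicate 3. The excess of more positive over more negative changes at 20 h, 3665 and 2826 genes, became 3259 and 3289 with DESeq2, 3127 and 3167 with its size factors, 2728 and 2898 with DESeq2 on the compared groups and 3116 and 3256 with limma. The count of DEGs in Ahr-/- BMMs at 3 h stayed within 1.5 times of 8330, between 6635 and 9469, except in a test against a fold of 2, which called 3032 genes, 1484 higher and 1548 lower, since it asks for a larger change. The share of rising genes among DEGs was 44.1% to 49.4%. Of the named genes' values, 2982 kept their side of the threshold, 57 newly passed it and 35 lost it. The count of 2 genes whose response differed between genotypes was the least stable value. It was 5 at an adjusted p below 0.05, 17 with DESeq2 on all libraries and 17 with DESeq2 on the compared groups. The edgeR fit of the compared groups gave 0, with 734 of 13156 genes at an unadjusted p below 0.05, and limma on the log2 values gave 8. With the identifier series as a covariate the count was 1. Leaving out a library gave 1 to 9, with 9 without activated Ahr+/+ replicate 3. The cause was not tested. Same-numbered resting and activated knockout libraries at 3 h had correlated deviations of -0.173, 0.407, 0.178 and 0.161, so the replicate numbers were not taken to pair them, and not every library correlated best with its own number. The replicate block gave 9203 DEGs in place of 8330 and 31 genotype differences, and on the compared groups only 6799 and 0 (950 of 13156 at an unadjusted p below 0.05). Fits with 2 replicates a group rest on fewer libraries, and limma on the log2 values lowered the median of the cytokine list to 3.95, below 5.25 for chemokines and 4.03 for ISGs. Depth limits genes near 0, whose fold changes are bounds, and neither the deleted part of Ahr nor the mouse behind a library could be checked.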
